A study of Vitis riparia with 12 samples.

Results

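A set of 3 grapevine genes of abscisic acid (ABA) conjugation and release was followed through root and shoot of Vitis riparia under water deficit: the UDP-glycosyltransferase VIT_12s0055g00020 and the beta-glucosidases VIT_01s0011g00760 and VIT_17s0000g02680. They are 3 genes that the study names for the conjugation of ABA to glucose and its reversal, out of 29966 gene models counted. All 3 passed the filter on low counts in each comparison. A further glycosyltransferase, UGT73B3, was among the study's ABA genes tested by PCR and is given with the other ABA genes below. In shoot under water deficit (WD) relative to shoot of well-watered control vines (C), VIT_01s0011g00760 rose and VIT_17s0000g02680 fell, while VIT_12s0055g00020 did not pass the test. In root, none of the 3 genes passed it, nor did any other gene.

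ABA accumulates when water is short and closes stomata. A UDP-glycosyltransferase can attach glucose to ABA and so form ABA-glucose ester, an inactive form that is stored in the vacuole and the apoplast and carried in the sap. Beta-glucosidases can cleave the ester and free ABA without new synthesis, as shown in Arabidopsis. The enzymes made by these 3 grapevine genes were not assayed here, and the ABA roles given below are those that the study assigns to them.

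The groups were WD shoot, C shoot, WD root and C root, with 3 libraries each and 3 vines per replicate. The vines were mature, potted V. riparia of a single accession grown in a greenhouse. WD vines received no water for 14 d and C vines received water daily. RNA came from shoot tips and root tips (the labels call the root samples whole root), so fewer cells of a type and less RNA per cell cannot be told apart. Shoot and root RNA was extracted by different methods, so organ and extraction cannot be told apart in any comparison of shoot with root. Nothing in the labels says whether a replicate number links vines between organs or treatments.

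Each library held 14376065 to 27769527 reads on genes. The shoot marker LHB1B1 (VIT_12s0028g00320), a light-harvesting protein, had 1737 to 3922 counts of reads scaled to library size (CPM) in the WD shoot libraries, 1878 to 3491 CPM in C shoot, 0.312 to 36.8 CPM in WD root, against 0.0994 to 2.68 CPM in C root. RuBisCO activase (VIT_13s0019g02050) was at 130.7 CPM or above in every shoot library and at 4.71 CPM or below in every root library. Both therefore matched the organ labels. The highest root level of LHB1B1 was in WD root replicate 1, and that of RuBisCO activase was in WD root replicate 3. The nitrate transporters NRT3.1 (VIT_17s0000g09470) and NRT2.5 (VIT_14s0066g00850), listed as root markers, did not separate the organs: NRT3.1 had 9.98 to 45.2 CPM in shoot libraries and 15.7 to 54.9 CPM in root libraries, and NRT2.5 was higher in every shoot library than in every root library. The root label was therefore supported only by the low shoot markers.

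VIT_12s0055g00020 lies on chromosome 12 at 12595660 to 12597254 of the V. vinifera PN40024 12X assembly, to which the V. riparia reads were aligned. It had 13.1, 25.4 and 7.31 CPM in WD shoot replicates 1, 2 and 3, against 19.5, 4.95 and 4.38 CPM in C shoot. The 2 low C shoot libraries lay below every WD shoot library, but C shoot replicate 1 lay above WD shoot replicates 1 and 3. The means were 15.3 ± 9.25 CPM (SD) in the 3 WD shoot libraries and 9.60 ± 8.55 CPM in the 3 C shoot libraries, with a log2 fold change of 0.67 (SE 0.69). That difference was smaller than the spread between replicates (adjusted p = 0.490 by edgeR's quasi-likelihood test with Benjamini-Hochberg adjustment, used for all adjusted p-values in the report unless another tool is named). Without C shoot replicate 1 the log2 fold change was 1.66 (adjusted p = 0.0783), and without WD shoot replicate 2 it was 0.08 (adjusted p = 0.946), so single libraries set the size of the estimate. C shoot replicate 1 also carried 239 CPM of NCED3 (VIT_19s0093g00550), which encodes an enzyme of the committed step of ABA synthesis. The other C shoot libraries had 45.0 and 20.6 CPM and WD shoot had 163 to 238 CPM, and NCED3 was not called in shoot. ABA genes called higher in WD shoot were mixed in C shoot replicates 1, 2 and 3. VIT_02s0087g00710 was also highest in replicate 1 (24.9, 10.7 and 12.1 CPM). VIT_02s0087g00910 (39.0, 26.5 and 45.3 CPM) and VIT_02s0025g00240 (4.82, 7.12 and 5.26 CPM) were not. The part of the state of C shoot replicate 1 in the result was not tested.

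**Figure D1:**
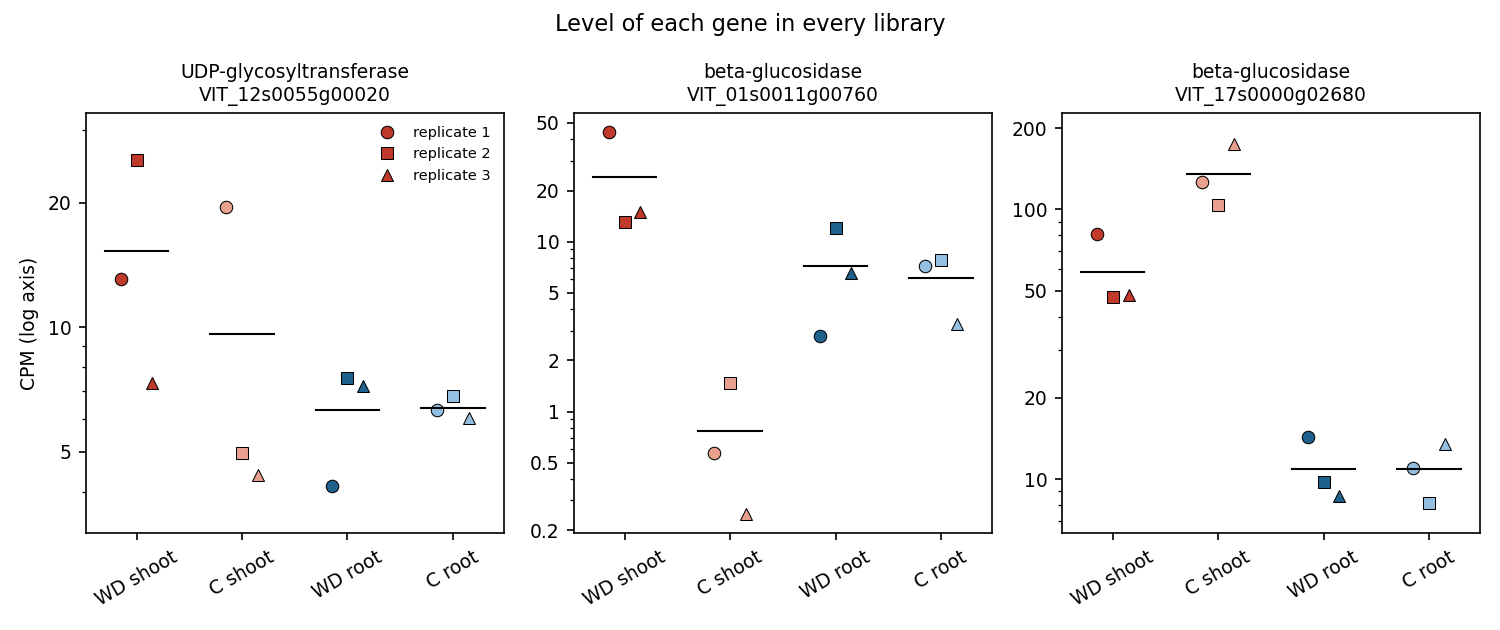
CPM of the 3 genes in each of the 12 libraries (log axis), by group, with replicates as symbols and the group mean as a line. VIT_01s0011g00760 was at or above 13 CPM in WD shoot and at or below 1.48 CPM in C shoot, VIT_17s0000g02680 was lower in every WD shoot library than in every C shoot library, and the groups of VIT_12s0055g00020 overlapped.

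VIT_01s0011g00760, a beta-glucosidase gene on chromosome 1 at 679669 to 685040, had 44.0, 13 and 14.9 CPM in WD shoot, against 0.567, 1.48 and 0.250 CPM in C shoot. The groups did not overlap, and these levels rest on 734, 253 and 241 reads in WD shoot and on 12, 43 and 6 reads in C shoot. Its log2 fold change was 4.88 (SE 0.80, adjusted p = 0.0126), a 29.5-fold higher level in WD shoot than in C shoot. The C shoot level was low enough that the size of the fold rests on few reads. Leaving out each library in turn gave 4.13 to 5.85, and the call was lost, at an adjusted p of 0.0506, when C shoot replicate 3 was left out. That fit called 632 genes over all genes, against 5301 with all 6 libraries. On log2(RPKM + 1), which understates changes of low genes, the difference was 1.20 by limma.

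VIT_17s0000g02680, the beta-glucosidase gene on chromosome 17 at 2495969 to 2498824, moved the other way. It had 80.7, 47.4 and 48.0 CPM in WD shoot, against 126, 104 and 175 CPM in C shoot. Every WD shoot library was below every C shoot library, and WD shoot replicate 1 was the closest to C shoot. The log2 fold change was -1.23 (SE 0.29, adjusted p = 0.0255), a 2.34-fold lower level in WD shoot. This call was lost without WD shoot replicate 2 (-1.10, adjusted p = 0.0923), WD shoot replicate 3 (-1.08, adjusted p = 0.0838) or C shoot replicate 3 (-0.99, adjusted p = 0.0783). Over all genes, those fits called 713, 2812 and 632 genes, against 5301 with all 6 libraries. Of the 3 genes, 1 was therefore called higher and 1 lower in WD shoot, where 27.1% of the 19569 genes tested were called, 13.1% as higher and 14.0% as lower. The WD shoot libraries were all above or all below the C shoot libraries for 2 of the 3 genes, as for 50.2% of all genes tested in shoot.

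**Figure D2:**
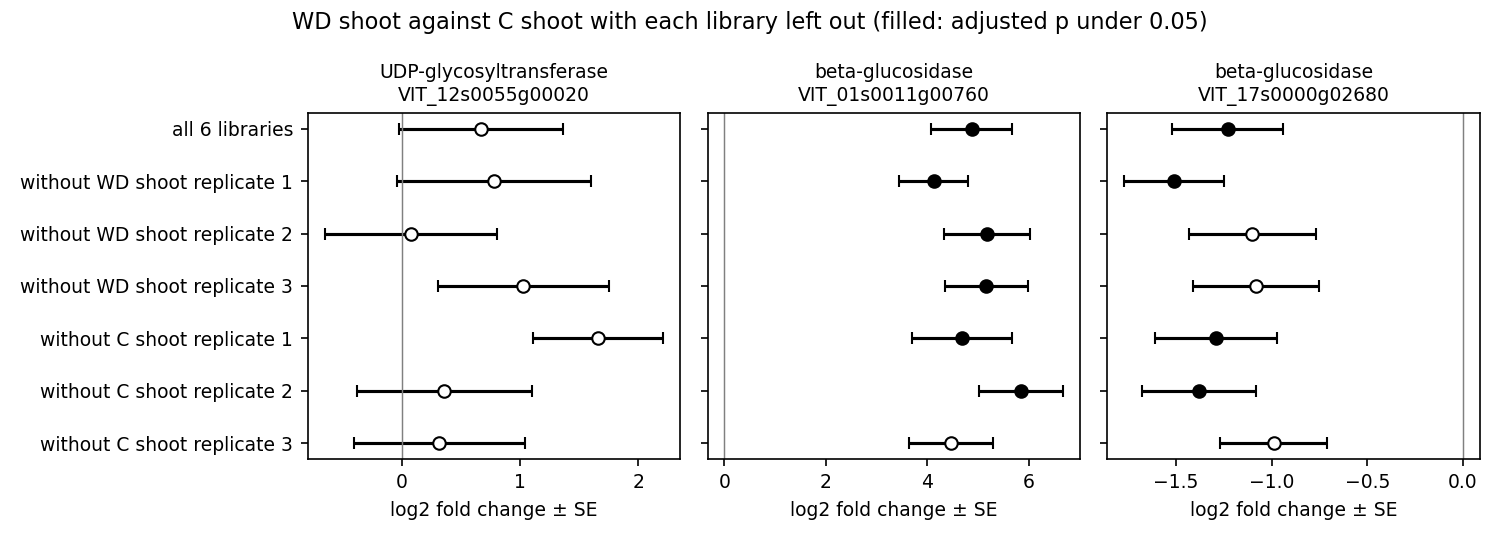
Log2 fold change (± SE) of WD shoot against C shoot for each gene with all 6 libraries and with each library left out in turn, filled where the adjusted p was under 0.05. The estimate ranged from 0.08 to 1.66 for VIT_12s0055g00020, from 4.13 to 5.85 for VIT_01s0011g00760 and from -1.51 to -0.99 for VIT_17s0000g02680.

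In root the 3 genes gave small differences. VIT_12s0055g00020 had 4.12, 7.54 and 7.21 CPM in WD root, against 6.31, 6.82 and 6.02 CPM in C root, with a log2 fold change of -0.01 (SE 0.27, adjusted p = 0.989). The C root libraries lay within the range of the WD root libraries. For VIT_01s0011g00760 the levels were 2.77, 12.1 and 6.58 CPM in WD root, against 7.21, 7.80 and 3.28 CPM in C root, with a log2 fold change of 0.24 (SE 0.56, adjusted p = 0.878). Its WD root libraries spread more widely than the C root libraries and enclosed them. VIT_17s0000g02680 had 14.3, 9.78 and 8.65 CPM in WD root, against 11, 8.19 and 13.5 CPM in C root, with a log2 fold change of 0.00 (SE 0.29, adjusted p = 0.998). The highest root level of this shoot-abundant gene was in WD root replicate 1, the root library with the most LHB1B1. The other shoot marker, RuBisCO activase, went the other way, at 0.27, 2.05 and 4.71 CPM in WD root replicates 1, 2 and 3. Whether the makeup of WD root replicate 1 had a part in the level was not tested. Without WD root replicate 1 the log2 fold change of VIT_17s0000g02680 was -0.24 (adjusted p = 0.636). Of all 19545 genes tested in root, 0.00% were called, while 1771 (9.06%) had an unadjusted p under 0.05 and DESeq2 called 441 genes (2.26%). None of the 3 genes was among the calls of DESeq2 in root.

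The difference between the organs was tested as the shoot response minus the root response over the 12 libraries. It was 4.69 on the log2 scale (SE 1.03) for VIT_01s0011g00760, with an adjusted p of 0.0637 that missed the threshold of 0.05. DESeq2, which called 9.08% of genes here, gave 4.74 with an adjusted p of 0.000278, and edgeR without WD shoot replicate 1 gave 3.91 with an adjusted p of 0.0442. That last fit called 1257 of the 21668 genes it tested, against 129 genes with all 12 libraries. The difference was -1.20 (SE 0.42, adjusted p = 0.164) for VIT_17s0000g02680 and 0.69 (SE 0.83, adjusted p = 0.699) for VIT_12s0055g00020. In this test 0.607% of the 21267 genes tested were called, and none of the 3 genes was.

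The 3 genes differed in where they were expressed. In well-watered vines VIT_17s0000g02680 was 12.4-fold higher in C shoot than in C root (log2 difference 3.63, SE 0.33, adjusted p = 1.02e-05), and VIT_01s0011g00760 was 7.77-fold lower in C shoot than in C root (log2 difference -2.96, SE 0.77, adjusted p = 0.00802, and -3.90 to -2.54 with each library left out). In this comparison 52.0% of genes were called, 27.3% as higher and 24.7% as lower in shoot, and the libraries of both genes were apart, as for 67.7% of all genes. VIT_12s0055g00020 had a log2 difference of 0.58 (SE 0.59, adjusted p = 0.426), which was -0.45 without C shoot replicate 1.

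Under water deficit VIT_17s0000g02680 was still 5.39-fold higher in WD shoot than in WD root (log2 difference 2.43, SE 0.31, adjusted p = 8.86e-05). For VIT_01s0011g00760 every WD shoot library lay above every WD root library (groups were apart for 63.1% of all genes), with a log2 difference of 1.74 (SE 0.69), and the adjusted p of 0.0501 missed the threshold. It was called by DESeq2 (1.72, adjusted p = 0.0235) and by edgeR without WD root replicate 2 (2.34, adjusted p = 0.0327), WD shoot replicate 2 (2.04), WD shoot replicate 3 (1.98), C shoot replicate 2 (1.74) or C shoot replicate 3 (1.74), while leaving out other libraries gave values down to 0.96. VIT_12s0055g00020 had a log2 difference of 1.28 (SE 0.59, adjusted p = 0.0843), with WD shoot replicate 3 at 7.31 CPM inside the WD root range. It was called without WD shoot replicate 3 (1.61, adjusted p = 0.0434) and in the fit without C shoot replicate 1 (1.27, adjusted p = 0.0222). Of the 21267 genes tested, 59.8% were called in this comparison, 29.6% as higher and 30.2% as lower in WD shoot.

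The order of the 4 groups therefore differed between the genes. By mean CPM, VIT_01s0011g00760 ran from WD shoot (24.0 ± 17.4 CPM) through WD root (7.16 ± 4.71 CPM) and C root (6.09 ± 2.46 CPM) to C shoot (0.766 ± 0.638 CPM; SD, n = 3 each). Only WD root and C root overlapped among neighbours in this order. VIT_17s0000g02680 ran from C shoot (135 ± 36.3 CPM) through WD shoot (58.7 ± 19.0 CPM) to WD root (10.9 ± 3.00 CPM) and C root (10.9 ± 2.64 CPM), and again only the root groups overlapped. For VIT_12s0055g00020 the means ran from WD shoot (15.3 CPM) and C shoot (9.60 CPM) to C root (6.39 ± 0.405 CPM) and WD root (6.29 ± 1.89 CPM), and every pair of neighbours overlapped.

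**Figure D3:**
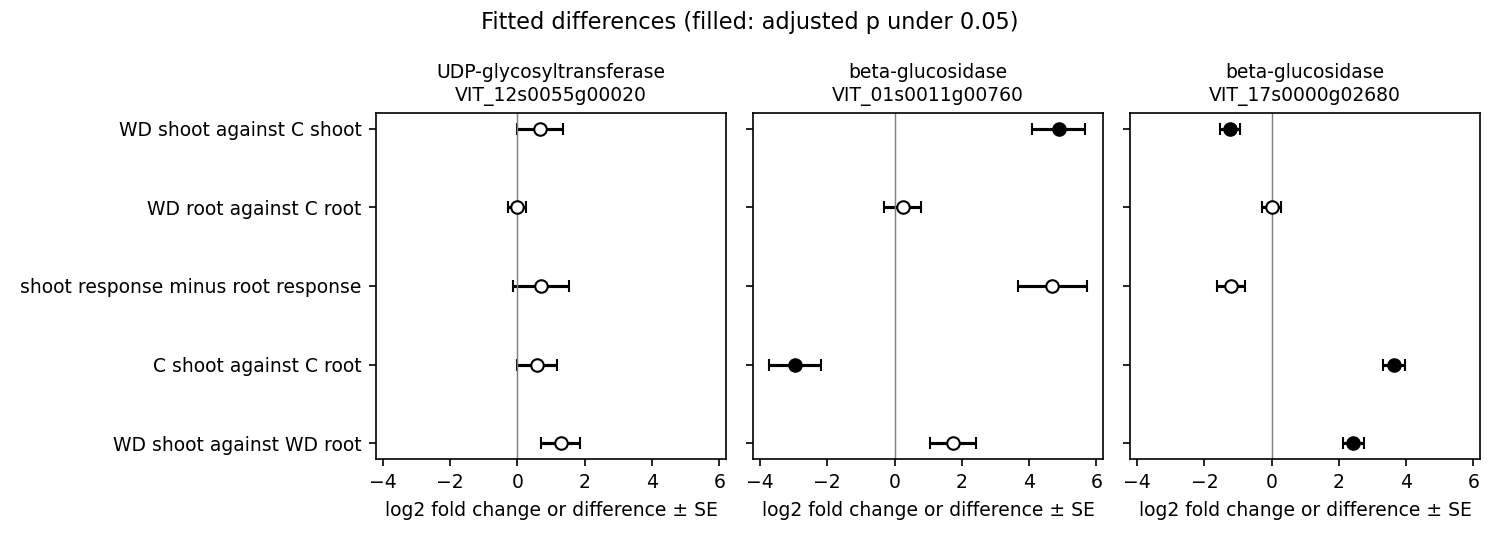
Fitted log2 differences (± SE) of the 3 genes in the 5 comparisons, each coded as the group named first minus the other, filled where the adjusted p was under 0.05. VIT_01s0011g00760 was called in WD shoot against C shoot and in C shoot against C root, VIT_17s0000g02680 in those comparisons and in WD shoot against WD root, and VIT_12s0055g00020 in none.

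Levels of different genes were set side by side in 2 ways, because the deposited RPKM and the counts did not match for the beta-glucosidase genes. Reads per library size over RPKM implied a length of 9.34 to 15.1 kb for VIT_01s0011g00760 and 5.46 to 8.16 kb for VIT_17s0000g02680, beyond their gene spans of 5.37 and 2.85 kb, but 1.37 to 1.76 kb for VIT_12s0055g00020, whose span is 1.59 kb. RPKM therefore put both beta-glucosidase genes lower relative to VIT_12s0055g00020 than the counts did. CPM per kb of gene span was added for this reason, after the data had been seen. It counts introns in the length.

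In C shoot VIT_17s0000g02680 was the most abundant of the 3 transcripts in every library, at 22.5 ± 6.38 RPKM (SD, n = 3) and 36.4 to 61.3 CPM per kb. VIT_12s0055g00020 was at 5.26 ± 4.18 RPKM there, and VIT_01s0011g00760 was the lowest at 0.0652 ± 0.0584 RPKM. In WD shoot the RPKM was 9.32 ± 2.62 for VIT_17s0000g02680, 7.89 ± 4.99 for VIT_12s0055g00020 and 1.61 ± 1.19 for VIT_01s0011g00760. VIT_01s0011g00760 was the lowest of the 3 there in both units, but by how much depended on the unit: in WD shoot replicate 1 it had 2.98 RPKM against 6.29 RPKM of VIT_12s0055g00020, but 8.19 against 8.20 CPM per kb of span.

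The 2 beta-glucosidase genes together had 15.3, 8.30 and 9.21 RPKM in WD shoot, against 19.2, 18.7 and 29.9 RPKM in C shoot, and 36.4, 19.0 and 19.6 CPM per kb in WD shoot, against 44.2, 36.7 and 61.3 CPM per kb in C shoot. The sum was lower in each WD shoot library than in each C shoot library in both units, but in CPM per kb WD shoot replicate 1 lay just below C shoot replicate 2. VIT_01s0011g00760 gave 9.42 to 19.5% of the RPKM sum in WD shoot and 0.065 to 0.699% in C shoot.

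The sum over VIT_12s0055g00020, given with no test, was 2.43, 0.616 and 2.36 in WD shoot by RPKM, against 1.90, 6.11 and 11.4 in C shoot, and C shoot replicate 1 fell within the WD shoot range. By CPM per kb it was 4.45, 1.19 and 4.27 in WD shoot, against 3.62, 11.8 and 22.3 in C shoot, with the same overlap. In root the unit decided whether the ratio lay below or above 1. It was 0.399 to 0.979 in WD root and 0.362 to 0.496 in C root by RPKM, but 0.941 to 2.14 in WD root and 1.01 to 1.41 in C root by CPM per kb. WD root and C root overlapped in both units, and the mean was higher in WD root in both (0.63 against 0.447 and 1.43 against 1.25). Which transcripts were more abundant in root was thus not settled.

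**Figure D4:**
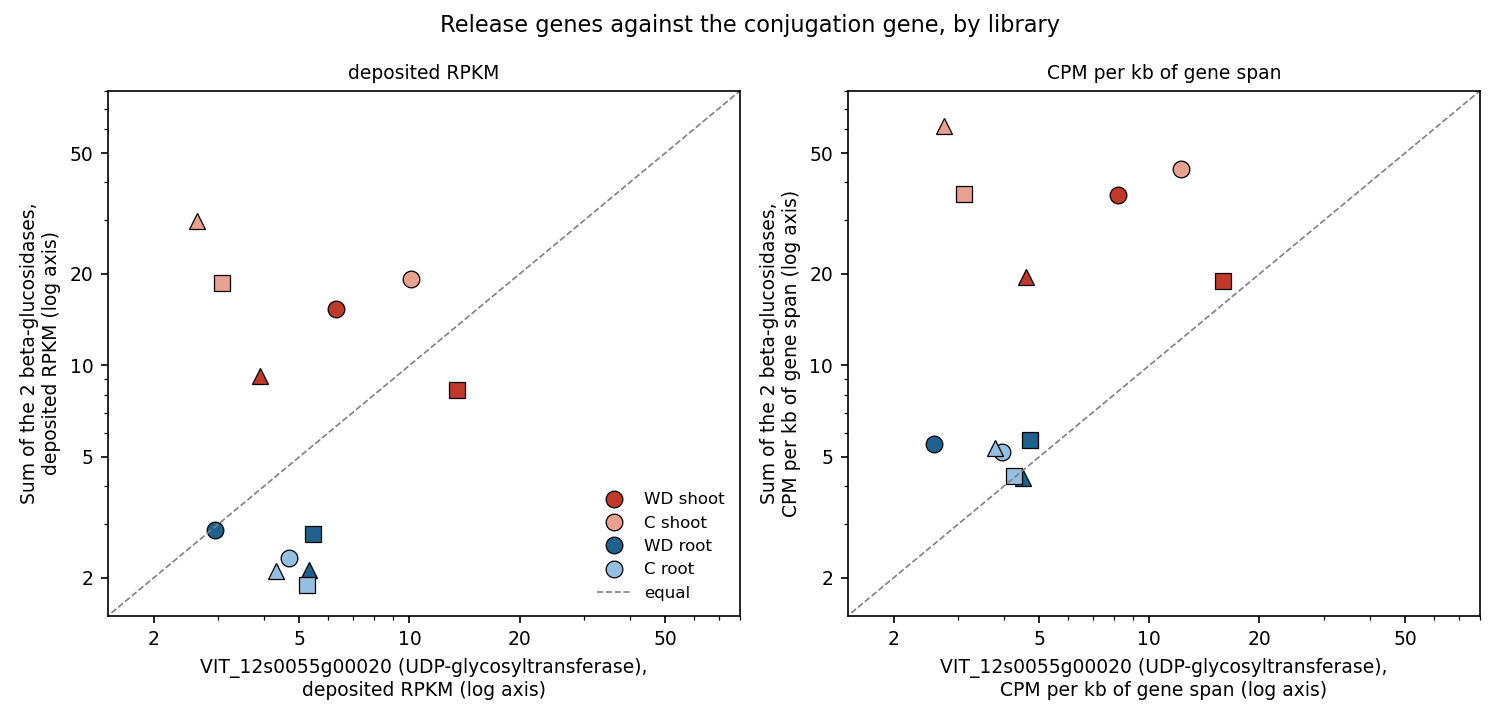
Both beta-glucosidase genes summed against VIT_12s0055g00020 in each library, in deposited RPKM (left) and in CPM per kb of gene span (right), on log axes, with groups by colour, replicates 1, 2 and 3 as circle, square and triangle, and a dashed line where both are equal. In RPKM every root library lies below the line, and in CPM per kb every root library except WD root replicate 3 lies above it.

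The other genes of ABA metabolism were taken as a list of 12, 10 named in the study's text and 2 from its lists of changed genes. Those 2 were taken as NCED genes, but the study's text does not name them. Most of the 12 were chosen because they changed in these libraries, so their direction is not independent evidence. In shoot 11 were tested, 7 were called higher and none lower, beside 13.1% and 14.0% of all genes tested, with a median log2 fold change of 1.03 against -0.02 over all genes tested. The called genes included both beta-carotene hydroxylases, which act upstream of ABA synthesis: VIT_02s0025g00240 at 1.95 (SE 0.36, adjusted p = 0.0149) and VIT_16s0050g01090 at 0.99 (SE 0.17, adjusted p = 0.0138). Of the 2 genes that the study's text does not name, VIT_02s0087g00910 had 231, 387 and 550 CPM in WD shoot against 39.0, 26.5 and 45.3 CPM in C shoot (log2 fold change 3.39, adjusted p = 0.00867). VIT_02s0087g00930 had a log2 fold change of 3.71 (adjusted p = 0.00894). Whether these 2 genes act in ABA synthesis was not tested. The NCED genes that the study's text names, NCED3 and VIT_10s0003g03750, were not called, at 1.03 (SE 0.82) and -0.10 (SE 0.59). ABA3 (VIT_19s0027g01090), which activates the aldehyde oxidase of the last step, rose by 0.93 (adjusted p = 0.0236), and ABA1 (VIT_07s0031g00620), the zeaxanthin epoxidase, was at 0.58 (adjusted p = 0.270). The rise of ABA3 was in counts, and in deposited RPKM its groups overlapped. It had 0.087, 0.140 and 0.134 RPKM in WD shoot, against 0.094, 0.091 and 0.085 RPKM in C shoot.

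Of the ABA 8-hydroxylase genes, whose products start ABA breakdown, VIT_03s0063g00380 (2.25, adjusted p = 0.0175) and CYP707A3 (VIT_02s0087g00710; 2.46, adjusted p = 0.00965) were called higher in WD shoot, and VIT_06s0004g05050 was not (-0.20, adjusted p = 0.844). The glycosyltransferase UGT73B3 (VIT_03s0063g00040) had 0 to 9 reads per library and was not tested. In root 9 of the 12 genes were tested and none was called, as no gene at all was (0.00%). Their median log2 fold change was 1.42, against 0.01 over all genes tested, and WD root and C root libraries were apart for 5 of the 9, against 15.0% of all genes tested in root. Among these were NCED3 (2.45, SE 0.53, adjusted p = 0.362) and VIT_06s0004g05050 (3.27, SE 0.35, adjusted p = 0.191), and DESeq2 called 5 of the 9, beside 2.26% of all genes. Of the 5 genes with libraries apart, CYP707A3 was the 1 with lower levels in WD root, at 45.6, 41.4 and 43.8 CPM, against 50.8, 60.0 and 133 CPM in C root (-0.90, SE 0.37, adjusted p = 0.549). None of the 3 conjugation and release genes had WD and C root libraries that did not overlap. In shoot 3 of the listed genes were called without C shoot replicate 3, and 4 without WD shoot replicate 2. Over all genes, those fits called 632 and 713 genes, against 5301 with all 6 libraries.

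**Figure D5:**
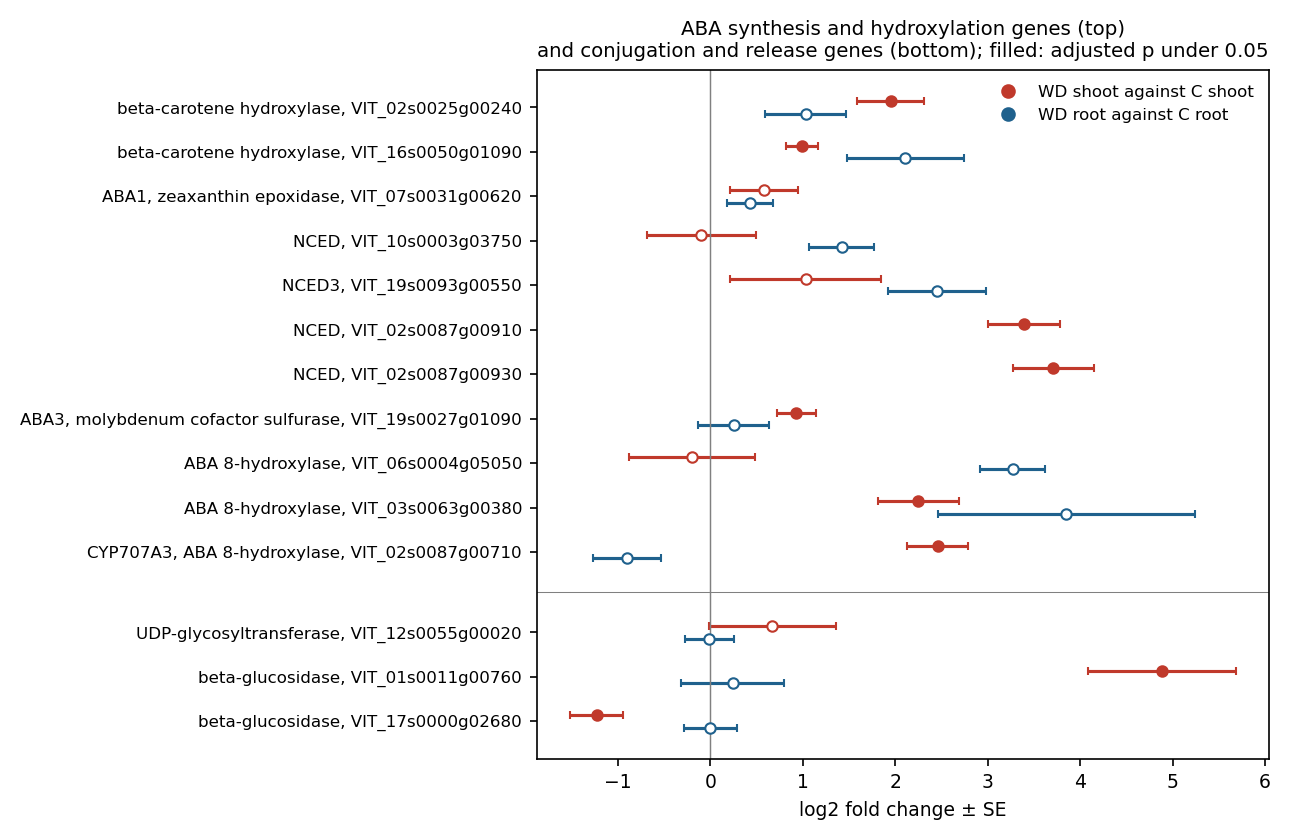
Log2 fold change (± SE) of WD against C in shoot (red) and root (blue) for the 11 ABA synthesis and hydroxylation genes, and below the line for the 3 conjugation and release genes, filled where the adjusted p was under 0.05. Genes with a single symbol were not tested in root. In shoot 7 of the upper 11 genes were called higher, and in root no gene was called.

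Other UDP-glycosyltransferase and beta-glucosidase genes were taken from the genes that the study lists as changed. For root that list was held whole, and for shoot it was held only in part and that part contained higher genes only, so a direction in shoot can be read only from genes on the root list. Of the 27 glycosyltransferase genes on it, 22 were tested in shoot, 8 were called higher and 4 lower, beside 13.1% and 14.0% of all genes, with a median log2 fold change of 0.74. The largest rises among well expressed genes were VIT_17s0000g07790, annotated as an N-hydroxythioamide S-beta-glucosyltransferase (2.94, SE 0.52, adjusted p = 0.0141), VIT_13s0019g03060, Glucosyltransferase-2 (2.46, SE 0.33, adjusted p = 0.00963), and VIT_12s0034g00080, an anthocyanidin 3-O-glucosyltransferase (2.04, SE 0.29, adjusted p = 0.0103). The falls among well expressed genes were VIT_03s0180g00200, a limonoid UDP-glucosyltransferase (-2.27, SE 0.35, adjusted p = 0.0116), and VIT_03s0180g00320, an indole-3-acetate beta-glucosyltransferase (-1.59, SE 0.44, adjusted p = 0.0392). The other 2 genes called lower fell outside the rule for naming and were singled out after their values were seen: VIT_03s0091g00040, a limonoid UDP-glucosyltransferase (-3.13, SE 0.72, adjusted p = 0.0252), and VIT_18s0041g00710, an anthocyanidin 5,3-O-glucosyltransferase (-1.98, SE 0.40, adjusted p = 0.0184). The WD shoot levels of VIT_03s0180g00200 were 74.2, 37.6 and 37.2 CPM, against 175, 233 and 295 CPM in C shoot. In root 26 of the 27 were tested and none was called, where 0.00% of all genes were. DESeq2 called 10 of the 26 in root, beside 2.26% of all genes. WD root and C root libraries were apart for 16 of them, against 15.0% of all genes. The study listed these genes as changed in these same root libraries, so this is not independent evidence. Leaving out WD shoot replicate 2 reduced the count called in shoot to 4, and so did leaving out C shoot replicate 3. Calls over all genes fell from 5301 to 713 and 632 in those fits.

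Beside the 2 beta-glucosidase genes of ABA release, 2 others were listed. VIT_07s0005g00390, Beta Glucosidase 11, had 104, 81.8 and 75.9 CPM in WD shoot, against 50.6, 15.7 and 25.2 CPM in C shoot, and was called (log2 fold change 1.51, SE 0.40, adjusted p = 0.0362). It came from the part of the shoot list that holds higher genes only. VIT_00s0220g00070, annotated as a latex cyanogenic beta glucosidase, had log2 fold changes of 0.07 (SE 0.22) in shoot and 0.87 (SE 0.41, adjusted p = 0.584) in root. Both families hold many similar genes, so reads of near-identical copies could be split or lost in counting and single-gene levels are uncertain to that degree.

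Gene models within 50 kb of the 3 genes were compared in the same fits, and none overlapped them. Around VIT_01s0011g00760, 10 of 12 neighbours were tested in shoot, where 27.1% of all genes were called. VIT_01s0011g00740, 12749 bp away, was called higher (1.50, SE 0.39, adjusted p = 0.0332) and VIT_01s0011g00780, 12888 bp away, was called lower (-1.36, SE 0.16, adjusted p = 0.00897). The nearest, VIT_01s0011g00770 at 3211 bp, had a log2 fold change of 0.49 (adjusted p = 0.104). The 4.88 of VIT_01s0011g00760 itself was larger than any of these. Around VIT_17s0000g02680, 9 of 12 neighbours were tested, and the MYB6 gene VIT_17s0000g02660 (-2.15, SE 0.40, adjusted p = 0.0158) and VIT_17s0000g02670 (-0.95, SE 0.23, adjusted p = 0.0267) were called lower, as VIT_17s0000g02680 was. The nearest, VIT_17s0000g02690 at 735 bp, was at -2.26 (SE 1.19, adjusted p = 0.191). None of the 4 tested neighbours of VIT_12s0055g00020 was called, and in root, where 0.00% of all genes were called, no neighbour was.

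The genes whose pattern was most like each gene were found by Pearson's r of log2(CPM + 0.5) over the 12 libraries, which fall into root and shoot libraries, and the values are descriptions with no test. For VIT_17s0000g02680 the closest were VIT_19s0014g01910 (r = 0.994), VIT_16s0050g01070 (0.991) and VIT_10s0116g01580 (0.989), and 1500 genes reached an r of 0.9. At the other end were VIT_17s0000g08460 (r = -0.991) and VIT_08s0040g02840 (-0.989), both higher in root. For VIT_01s0011g00760 only 7 genes reached 0.9. The closest were VIT_08s0007g03510 (r = 0.941), the tubulin alpha gene VIT_18s0001g08300 (0.938) and the NAC gene VIT_07s0005g03610 (0.937). VIT_07s0005g03610 averaged 14.2 CPM in WD shoot, 0.814 CPM in C shoot, 6.62 CPM in WD root, and 2.88 CPM in the C root libraries, the same order of groups as VIT_01s0011g00760. The lowest were VIT_08s0007g05520 (-0.916) and VIT_18s0001g14610 (-0.911). For VIT_12s0055g00020 the closest were VIT_05s0020g02320 (r = 0.902), VIT_09s0002g00590 (0.895) and VIT_13s0067g03850 (0.870), and the lowest VIT_11s0078g00400 (-0.915) and VIT_08s0007g06890 (-0.909). Its closest genes gave an r of only 0.334, 0.717 and 0.313 on log2(RPKM + 0.1), so their likeness depended on the unit.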

How the data were processed

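Total RNA of root and shoot tips was sequenced by the authors as 100 bp single-end reads in 12 libraries. Per the methods and processing notes, reads were cleaned with Prinseq and aligned with TopHat 2.0.8 and Bowtie2 2.1.0 to the V. vinifera PN40024 12X assembly. The authors deposited htseq-count tables, which hold raw counts per gene model, and RPKM values from Cufflinks, whose version differs between these sources. Lines that name no gene held 23.5 to 30.9% of the reads and were left out. The deposited Cuffdiff comparisons hold the authors' fold changes, p-values and q-values and were not used. There were 0 columns that could not be assigned to a library.

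Genes were kept with filterByExpr and scaled by TMM in edgeR 4.0.16 (R 4.3.3). WD was compared with C over the 6 libraries of each organ, and the organs and their interaction over 12 libraries, by two-sided quasi-likelihood tests with Benjamini-Hochberg adjustment and a threshold of 0.05. The SE is the absolute log2 fold change over the square root of F. CPM was scaled over 12 libraries. The alternatives were DESeq2 1.42.0, 2 scalings, 2 filters, a replicate block, limma 3.58.1 on RPKM (genes above 0 in 3 or more libraries), a 12-library model and each library left out. The code was tested on simulated counts. No library was a duplicate of another, since replicates gave a chi-square of 22.5 to 163 per degree of freedom.

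The members and lists were chosen with earlier results of these data known. Named genes were the 3 members, the ABA list, in the families the 3 largest rises and 3 largest falls per organ with an adjusted p under 0.05 and an average log2(CPM + 0.5) at or above the median, all gene models within 50 kb, and per member the 3 highest and 2 lowest r. The reference table used here gives no descriptions, so families were matched on the annotation words UDP-glycosyl, glucosyl or glucuronosyl transferase and beta-glucosidase in the study's lists of changed genes, without epimerases, and markers were 4 genes fixed by identifier. No protein or promoter sequence of these genes was used here. Same-numbered libraries were not called pairs. Their deviations from group means correlated at -0.435 to 0.155 between treatments and at 0.002 to 0.298 between organs. The values between organs were all above 0 but some were close to it, so a link between organs was neither shown nor excluded. The p-values measure the spread between replicates of 3 vines each.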

Additional observations from a re-analysis of the deposited data

Results flagged for a closer look

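CYP707A3 (VIT_02s0087g00710), the ABA 8-hydroxylase gene of the ABA list, was singled out because its response differed between the organs by the test of the difference itself. Its shoot response exceeded its root response by 3.37 on the log2 scale (SE 0.55, adjusted p = 0.0488 by edgeR's quasi-likelihood test over 12 libraries). Its log2 fold change was 2.46 in WD shoot against C shoot and -0.90 in WD root against C root, and the libraries did not overlap in either organ. The call was lost in 9 of the 12 fits that left out a library (2.82 to 3.85, adjusted p from 0.0159 to 0.118) and held only without WD root replicate 3, WD shoot replicate 1 or C shoot replicate 1. Calls over all genes also fell, from 129 to 0, without WD root replicate 2, any C root replicate or C shoot replicate 3. The fits that kept the call of CYP707A3 called 599, 1257 and 310 genes. None of the 3 conjugation and release genes met this threshold, and groups of 3 libraries were too small to test for outlying libraries. Among the listed glycosyltransferase genes, VIT_06s0004g05780 was also called in this test with all 12 libraries (2.98, SE 0.36, adjusted p = 0.0184). It came from the part of the shoot list that holds higher genes only.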

How the results depend on the processing

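In shoot, the rise of VIT_01s0011g00760 and the fall of VIT_17s0000g02680 kept their direction and their call under every alternative other than leaving out a library. Without each library in turn the log2 fold change of WD shoot against C shoot was 4.13 to 5.85 for VIT_01s0011g00760 (1 of 6 fits lost the call), -1.51 to -0.99 for VIT_17s0000g02680 (3 of 6 lost it) and 0.08 to 1.66 for VIT_12s0055g00020. VIT_01s0011g00760 had no value with at least 10 counts in every library outside root, since C shoot replicate 3 held 6 reads. In root the values near 0 changed sign: VIT_12s0055g00020 was 0.03 with total counts alone and -0.16 to 0.21 without a library, VIT_01s0011g00760 was -0.36 to 0.61 without a library, and VIT_17s0000g02680 was -0.01 by DESeq2, -0.02 with upper-quartile scaling, -0.01 with no filter, 0.00 with all 12 libraries in a model and -0.24 to 0.18 without a library, with no call.

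For the shoot response minus the root response, DESeq2 called VIT_01s0011g00760 (4.74), and leaving out a library gave 3.91 to 5.63, -1.50 to -0.96 for VIT_17s0000g02680 and 0.11 to 1.72 for VIT_12s0055g00020. With a replicate block VIT_17s0000g02680 was called (-1.21, adjusted p = 0.0302), and the block changed no other call of the 3 genes. Within organs it called 3737 genes in shoot against 5301 without it, and not every library correlated best with its own number. In C shoot against C root VIT_12s0055g00020 was -0.45 to 0.93 without a library, and in WD shoot against WD root 0.69 to 1.61. In the last comparison VIT_01s0011g00760 was called by DESeq2 (1.72) and was 0.96 to 2.34 without a library. The causes of these changes were not tested.

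Over all genes, leaving out a library called 632 (C shoot replicate 3) to 6115 genes (WD shoot replicate 1) in shoot, against 5301. For the difference between organs it called 0 to 1257 genes, against 129. That difference gave 1931 calls by DESeq2, 757 with the block, 303 with total counts alone, 284 with 10 counts in every library and 60 with no filter. DESeq2 called 441 genes in root and the 12-library model 11, against 0. With total counts alone the median log2 fold change over all genes was -0.12 in shoot against -0.02, with 37.7% of calls higher against 48.3%, -0.20 for the difference between organs against -0.04 (20.8% against 45.7%), -0.11 in C shoot against C root where the main value was 0.01, and -0.32 in WD shoot against WD root where it was -0.04 (37.4% against 49.5%). Upper-quartile scaling gave medians of -0.13 in C shoot against C root and -0.18 in WD shoot against WD root. The number of ABA genes called in shoot was 4 in the 12-library model.
With 3 libraries a group, a difference as small as that of VIT_12s0055g00020 in shoot was not detectable at its spread, and the C shoot level of VIT_01s0011g00760 rests on 6 to 43 reads per library. The Spearman order shared 0 of the 3 closest genes with Pearson's r for each gene, and log2(RPKM + 0.1) shared 0, 1 and 1. In CPM per kb of gene span, an alternative chosen after seeing the data, the mean ratio of the beta-glucosidase sum to VIT_12s0055g00020 was 3.30 in WD shoot, 12.6 in C shoot, 1.43 in WD root and 1.25 in C root, against 1.80, 6.47, 0.63 and 0.447 by RPKM.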

Other observations

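Among the 12 ABA genes, 8 of the 11 tested were called higher and 2 lower in C shoot against C root, and 6 were called higher and none lower in WD shoot against WD root (edgeR, 12 libraries), where 27.3% and 29.6% of all tested genes were called higher, and 24.7% and 30.2% lower. Of the 26 tested genes on the root list of glycosyltransferases, 4 were called higher and 11 lower in C shoot against C root, and 5 higher and 12 lower in WD shoot against WD root.

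In WD root the breakdown gene VIT_03s0063g00380 had 0.675, 4.29 and 30.3 CPM, against 1.24, 1.06 and 0.119 CPM in C root, so WD root replicate 1 lay within the C root range while replicate 3 was far above it (log2 fold change 3.85, SE 1.39, adjusted p = 0.507). VIT_06s0004g05050, of the same family, had 10.7, 10.9 and 10.8 CPM in WD root, against 0.597, 1.51 and 1.25 CPM in C root.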
